A study of Rattus norvegicus with 4 samples.

Results

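The aminoacyl-tRNA synthetases and their scaffold proteins were examined in neonatal rat cardiomyocytes that overexpressed atrogin-1. A gene was included when its symbol on the array was that of an aminoacyl-tRNA synthetase (the letter of the amino acid followed by ars, with or without 1 or 2, such as Wars1 and Wars2), and Aimp1, Aimp2 and Eef1e1 were added. The rule used names only and no measured value. It gave 34 genes with 52 probe sets, of 14224 genes and 31042 probe sets in all. They fall into 10 genes of the multisynthetase complex, 10 other cytosolic synthetase genes and 14 mitochondrial synthetase genes. Farsa, Farsb and Tars3 lie outside the rule and are given with the related genes.

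Aminoacyl-tRNA synthetases join each amino acid to its own tRNA, the step that sets the genetic code in protein synthesis. In animals several cytosolic synthetases are held in a multisynthetase complex by the scaffold proteins AIMP1, AIMP2 and EEF1E1 (also known as AIMP3), the other cytosolic synthetases work outside it, and a separate nuclear-encoded set is imported into mitochondria. Many cytosolic synthetase genes are known targets of ATF4, the transcription factor made when the initiation factor eIF2 is phosphorylated, whereas the mitochondrial enzymes serve the translation of the few respiratory chain subunits that mitochondria encode, on which heart muscle depends.

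Ventricular cardiomyocytes from Sprague-Dawley pups aged 1 or 2 days were exposed for 24 hours to an adenovirus carrying both atrogin-1 and GFP (Ad-atrogin-1, 2 arrays) or GFP without atrogin-1 (Ad-GFP, 2 arrays). All cultures therefore carried adenovirus and GFP, were kept in serum-free medium, and no uninfected culture was analysed here. Atrogin-1 (Fbxo32) is the substrate-binding subunit of a muscle ubiquitin ligase. The comparison asks which genes differ once atrogin-1 is overexpressed in these cells. The labels name the arrays of a group biological replicates 1 and 2. The methods state that RNA came from independent experiments, without naming the experiment of each array. Nothing says that the arrays came from separate animals, so p-values measure only the spread between these samples.

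Values are log2 signals of probe sets, and a log2 fold change is Ad-atrogin-1 minus Ad-GFP, with the standard error (SE) of limma's moderated fit. A probe set or gene was called at a Benjamini-Hochberg adjusted p under 0.05 together with a change of at least 2-fold. Each gene is represented by its brightest probe set. Array medians lay between 5.51 and 5.52. The number of arrays limits the precision, since an exact permutation test of 2 arrays against 2 cannot give a two-sided p below 0.333.

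Fbxo32 had log2 signals of 13.55 and 13.47 in Ad-atrogin-1 cells, against 5.24 and 5.04 in Ad-GFP cells, a log2 fold change of 8.37 (SE 0.13, limma adjusted p = 4.03e-05 over genes). The signal does not separate viral from cellular Fbxo32 RNA. The 9 cardiomyocyte markers had a summed signal (log2 of the sum) of 15.32 to 15.64 in Ad-atrogin-1 cells and 15.39 to 15.50 in Ad-GFP cells, led by Nppa (atrial natriuretic peptide) and Tnnt2 (cardiac troponin T). RNA of other cell types was also present: 8 fibroblast markers summed to 13.62 to 13.70 in Ad-atrogin-1 cells and 13.34 to 13.72 in Ad-GFP cells, 6 smooth muscle and pericyte markers to 11.25 to 11.52 in Ad-atrogin-1 cells and 11.36 to 11.40 in Ad-GFP cells, and 5 endothelial markers to 8.50 to 9.48 in Ad-atrogin-1 cells and 8.45 to 8.97 in Ad-GFP cells. The 6 macrophage markers summed to 7.58 to 9.005 in Ad-atrogin-1 cells and 8.15 to 8.36 in Ad-GFP cells, and all 6 were lower on Ad-atrogin-1 replicate 2 than on replicate 1. The same held for all 9 cardiomyocyte markers (median difference -0.35), of which 8 were higher on replicate 2 in Ad-GFP cells, and all 5 endothelial markers were higher on replicate 2 in both groups. The 5 mesothelial and epithelial markers summed to 8.62 to 8.79 in Ad-atrogin-1 cells and 7.90 to 8.14 in Ad-GFP cells, with Krt19 at 7.89 and 8.09 in Ad-atrogin-1 cells, against 3.20 and 5.48 in Ad-GFP cells (limma adjusted p = 0.114 over genes). No marker gene was called, and the part of these cell types in the synthetase values was not tested. In cultures of mixed cells, fewer cells of a type and less RNA per cell cannot be told apart.

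The promoters of the synthetase genes are shown first, because a sequence that ATF4 is known to bind was more frequent in the cytosolic promoters than in those of all array genes. Promoter sequences (250 bases before to 50 after a start site, RefSeq, build GRCr8) were found for 32 of the 34 genes, all but Gars1 and Rars1. The start site of the window was the outer boundary of the annotated gene in 12 of the 32 and lay 28 to 2490 bases downstream of it in the other 20, by 1065 bases or more in Aars1, Eprs1, Cars2 and Rars2. The core of the C/EBP-ATF response element, TGATGNAA on either strand, lay in the promoters of 7 of 18 cytosolic genes (38.9%) and of 0 of 14 mitochondrial genes. Of all 27457 rat promoters of this length 3.82% held it, and of the 11740 promoters of genes on the array 2.21%. At these shares, 0 of 14 mitochondrial promoters lies near the background. The 7 genes were Cars1, Tars1, Yars1, Mars1, Iars1, Nars1 and Aars1, and Aars1 held it at 2 places. Each match is printed with up to 8 bases on either side, 5′ to 3′ on the strand of the gene, with the matched bases in capitals. Where the match lies on the opposite strand, its reverse complement is shown. The positions of the first matched base, counted from the start site of the window, were 18 in Cars1, -27 in Tars1, 39 in Yars1, -17 in Mars1, -24 in Iars1, -14 in Nars1, and -112 and 10 in Aars1. That start site lay 56 bases downstream of the gene boundary in Cars1, 64 in Iars1, 127 in Mars1 and 1788 in Aars1, and at the boundary in Tars1, Yars1 and Nars1.
Cars1, chr1:208225337-208225360, minus strand: cgccgcggTTGCATCAgattctgg
Tars1, chr2:62114814-62114837, minus strand: gcgtcccgTTGCATCAgctggtta
Yars1, chr5:146820193-146820212, plus strand: agctcagcTGATGCAAcctg
Mars1, chr7:65023755-65023778, minus strand: cgttccggTTGCATCAgcgtgggc
Iars1, chr17:15193661-15193684, minus strand: tgtcagtaTTGCATCAcctccaga
Nars1, chr18:60275781-60275804, minus strand: aggtgatcTGATGCAAcgcttcag
Aars1, chr19:55908362-55908385, plus strand: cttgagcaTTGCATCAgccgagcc
Aars1, chr19:55908483-55908506, plus strand: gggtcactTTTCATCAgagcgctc

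In 7 of these 8 places the variable base of the core is C (TGATGCAA), and the place at 10 in Aars1 holds an A there instead. None of the matches overlapped another of the motifs searched. The cAMP response element TGACGTCA and the XBP1 and ATF6 element TGACGTGG were in 0 of the 32 promoters, against 2.85% and 0.835% of the promoters of array genes. For both elements, 0 of 32 lies near the background at these shares. CCACG, one part of the endoplasmic reticulum stress element, was in 16 of 32 promoters, against 44.4% of those of array genes, and TATAAA, searched as an unrelated motif, was in 3 of 32 (9.38%, against 8.45%). Hars1 and Hars2 lie head to head, so that their promoter windows share 243 bases, and neither holds TGATGNAA. A match is a string of letters and no measured binding.

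No synthetase or scaffold gene passed the test. The number called was 0 of 52 probe sets in either direction, against 0.248% of all probe sets called higher and 0.0258% called lower, and 0 of 34 genes, against 0.436% of all genes called higher. No member reached an adjusted p under 0.05 at any fold: the lowest was 0.127 over probe sets (the second Wars1 probe set) and 0.198 over genes (Mars1). At an unadjusted p under 0.05 with no fold threshold, limma gave 6 of 34 genes higher (Wars1, Eprs1, Tars2, Mars1, Tars1 and Hars1) and 0 lower, and the methods' t-test on the same values gave 3 higher and 0 lower. By limma 6.83% of all genes were higher at that p, and 8.41% of the upper 60% of genes by signal.

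The direction was nevertheless largely shared. The log2 fold change was positive in 30 of the 34 genes and in 49.2% of all genes, and its median was 0.21 over the 34 genes, against -0.0028 over all genes and 0.0069 over the upper 60% by signal. In 18 of 34 genes (52.9%) the Ad-atrogin-1 arrays both lay above every Ad-GFP array, which held for 20.7% of all genes and 23.3% of the upper 60% by signal. In 16 genes the groups overlapped, and in 0 genes the Ad-atrogin-1 arrays both lay below every Ad-GFP array. Log2 fold changes ran between -0.11 (Rars2) and 0.72 (Wars1) with SEs of 0.11 to 0.21. Only Wars1 exceeded 1.5-fold, and 452 of all 14224 genes were higher by at least 1.5-fold. The upper 95% limit of the change was under 2-fold in 32 of 34 genes, the exceptions being Wars1 (2.28-fold) and Tars2 (2.05-fold). It was also under 2-fold in 13622 of all 14224 genes, so this count lies near the background. The plot of changes by gene shows the 3 groups side by side.

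**Figure D1:**
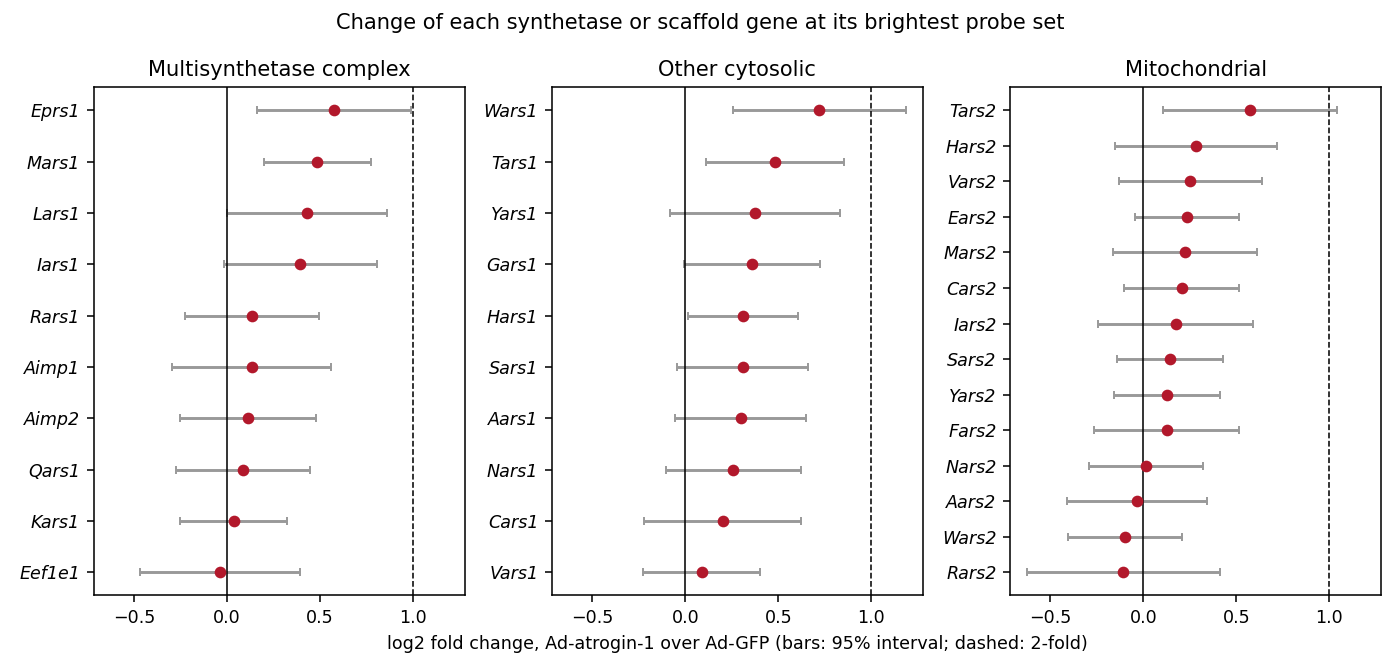
Log2 fold change (Ad-atrogin-1 minus Ad-GFP, 2 arrays each) of each of the 34 genes at its brightest probe set, with genes grouped as multisynthetase complex, other cytosolic and mitochondrial; bars are 95% intervals of the moderated fit and the dashed line marks 2-fold. Wars1 lies highest at 0.72 and Rars2 lowest at -0.11, and 30 of the 34 genes lie above 0.

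In the multisynthetase complex the enzymes with the larger values were Eprs1, Mars1, Lars1 and Iars1, while the 3 scaffold genes lay near 0. The median log2 fold change of the 10 genes was 0.13. In 4 of 10 the Ad-atrogin-1 arrays were both above every Ad-GFP array, against 20.7% of all genes. Eprs1, which charges tRNA with both glutamate and proline, had log2 signals of 11.08 and 11.42 in Ad-atrogin-1 cells, against 10.55 and 10.79 in Ad-GFP cells. The groups did not overlap, although the gap between the nearest arrays was smaller than the gap between the Ad-atrogin-1 replicates. Its log2 fold change was 0.58 (SE 0.17, limma adjusted p = 0.255 over genes), or 1.49-fold. Mars1, the methionine enzyme, had 9.81 and 9.85 in Ad-atrogin-1 cells, against 9.30 and 9.40 in Ad-GFP cells. Replicates lay close together in both groups and the groups were well apart, with a log2 fold change of 0.48 (SE 0.12, limma adjusted p = 0.198 over genes).

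Lars1, the leucine enzyme that also acts as a leucine sensor for mTORC1, had 9.96 and 10.15 in Ad-atrogin-1 cells, against 9.42 and 9.83 in Ad-GFP cells. Ad-GFP replicate 1 was the low array, and the log2 fold change was 0.43 (SE 0.17, limma adjusted p = 0.392 over genes). Iars1, the isoleucine enzyme, had 9.99 and 10.24 in Ad-atrogin-1 cells, against 9.56 and 9.89 in Ad-GFP cells. Here too the groups did not overlap but Ad-atrogin-1 replicate 1 was only slightly above Ad-GFP replicate 2, and the log2 fold change was 0.39 (SE 0.17, limma adjusted p = 0.414 over genes). Without Ad-GFP replicate 1 the value was 0.22 in Lars1 and 0.23 in Iars1. The remaining enzymes of the complex, Rars1 (arginine), Qars1 (glutamine) and Kars1 (lysine, which also serves mitochondria), had log2 fold changes of 0.13, 0.09 and 0.04, all with overlapping groups. Among the scaffolds, Aimp1 had a log2 fold change of 0.13 and Aimp2 one of 0.11. Eef1e1, the scaffold that docks the methionine enzyme, had 9.80 and 9.91 in Ad-atrogin-1 cells, against 10.11 and 9.68 in Ad-GFP cells. Its Ad-GFP arrays lay on either side of the Ad-atrogin-1 arrays, with a log2 fold change of -0.04 (SE 0.17, limma adjusted p = 0.958 over genes), and the sign turned to 0.18 without Ad-GFP replicate 1 and to 0.02 without Ad-atrogin-1 replicate 1.

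All 10 cytosolic synthetase genes outside the complex had a positive log2 fold change, with a median of 0.31. In 8 of 10 the Ad-atrogin-1 arrays both lay above every Ad-GFP array, against 20.7% of all genes. Wars1, the tryptophan enzyme and an interferon-inducible gene, had log2 signals of 9.61 and 9.78 in Ad-atrogin-1 cells, against 8.73 and 9.21 in Ad-GFP cells. Ad-GFP replicate 1 was the lowest array by far. The log2 fold change was 0.72 (SE 0.19, limma adjusted p = 0.223 over genes), or 1.65-fold, and it was 0.48 without Ad-GFP replicate 1. Tars1, the threonine enzyme, had 9.60 and 9.91 in Ad-atrogin-1 cells, against 9.21 and 9.34 in Ad-GFP cells. Ad-atrogin-1 replicate 2 was the high array, and the log2 fold change was 0.48 (SE 0.15, limma adjusted p = 0.281 over genes).

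Yars1, the tyrosine enzyme, had 10.04 and 10.44 in Ad-atrogin-1 cells, against 9.73 and 10.01 in Ad-GFP cells. Its Ad-atrogin-1 replicate 1 was barely above Ad-GFP replicate 2, and the log2 fold change was 0.37 (SE 0.18, limma adjusted p = 0.482 over genes), which was 0.17 without Ad-atrogin-1 replicate 2. Gars1, the glycine enzyme of both cytosol and mitochondria, had 10.86 and 11.14 in Ad-atrogin-1 cells, against 10.55 and 10.73 in Ad-GFP cells. The groups did not overlap, and the log2 fold change was 0.36 (SE 0.15, limma adjusted p = 0.397 over genes), which was 0.22 without Ad-atrogin-1 replicate 2. Hars1, the histidine enzyme, had 8.08 and 8.16 in Ad-atrogin-1 cells, against 7.87 and 7.75 in Ad-GFP cells. Its replicates lay close together, with a log2 fold change of 0.31 (SE 0.12, limma adjusted p = 0.374 over genes). Sars1 (serine), Aars1 (alanine) and Nars1 (asparagine) followed at 0.31, 0.30 and 0.26 without overlap, and Cars1 (cysteine) and Vars1 (valine) at 0.20 and 0.09 with overlap.

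**Figure D2:**
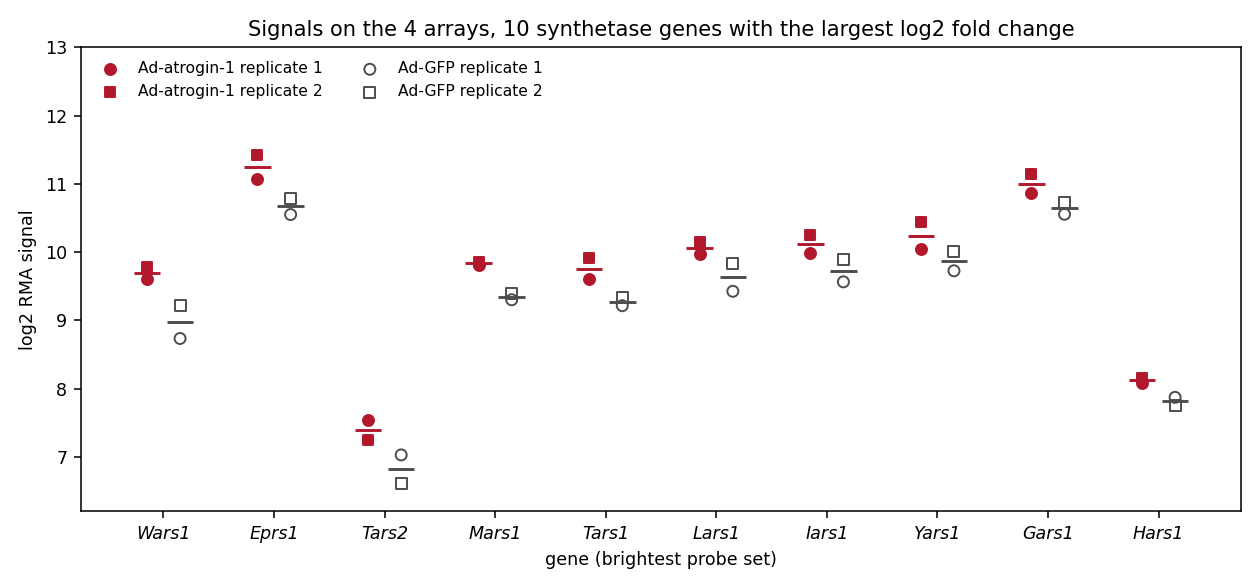
Log2 signal on each of the 4 arrays for the 10 genes with the largest log2 fold change, Ad-atrogin-1 left of Ad-GFP; points are single arrays and the lines are group means (n = 2 arrays each). In all 10 genes the Ad-atrogin-1 arrays both lie above every Ad-GFP array, by the widest mean difference in Wars1 (0.72). The genes were picked for their values on these same arrays, so this separation partly follows from the choice. It held for 20.7% of all genes.

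The 14 mitochondrial genes were more mixed. Their median log2 fold change was 0.16, and 11 of 14 were positive. The Ad-atrogin-1 arrays both lay above every Ad-GFP array in 6 of 14 (42.9%), against 20.7% of all genes. The 6 were Tars2, Vars2 (valine), Ears2 (glutamate), Cars2 (cysteine), Sars2 (serine) and Yars2 (tyrosine). Tars2, the mitochondrial threonine enzyme, had the largest value of the 14, with log2 signals of 7.54 and 7.25 in Ad-atrogin-1 cells, against 7.03 and 6.61 in Ad-GFP cells. Replicate 1 was the higher array in both groups. Its log2 fold change was 0.57 (SE 0.19, limma adjusted p = 0.298 over genes), and it lay at 0.37 without Ad-GFP replicate 2. The next values were 0.28 in Hars2, 0.25 in Vars2 and 0.24 in Ears2.

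Of the 4 genes with the lowest values, 3 were mitochondrial. Rars2, the mitochondrial arginine enzyme, had 6.58 and 6.28 in Ad-atrogin-1 cells, against 6.79 and 6.28 in Ad-GFP cells. Replicate 2 read the same in both groups, and the log2 fold change was -0.11 (SE 0.21, limma adjusted p = 0.884 over genes). Wars2, the mitochondrial tryptophan enzyme, had 5.27 and 5.14 in Ad-atrogin-1 cells, against 5.36 and 5.25 in Ad-GFP cells. The groups overlapped, with a log2 fold change of -0.10 (SE 0.12, limma adjusted p = 0.798 over genes), and its second probe set also gave a negative value, -0.03. Aars2, the mitochondrial alanine enzyme, had 6.15 and 5.96 in Ad-atrogin-1 cells, against 6.24 and 5.95 in Ad-GFP cells. The log2 fold change was -0.04 (SE 0.15, limma adjusted p = 0.955 over genes). Without Ad-GFP replicate 1 the sign turned to 0.11 in Aars2 and 0.15 in Rars2, and without Ad-atrogin-1 replicate 2 to 0.06 in Aars2 and 0.04 in Rars2. Nars2, the asparagine enzyme, was the 1 gene with a mean signal under the lower quartile of all probe sets (3.92), where a change is not an exact size, and its log2 fold change was 0.01.

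Genes with several probe sets gave a second reading of the same RNA. There were 14 such genes, and in 11 of them all probe sets were positive. Wars1 had log2 fold changes of 0.72 and 0.74, Mars1 of 0.48 and 0.47, Tars2 of 0.57 and 0.55, and Iars1 of 0.39 at both. In the second Wars1 probe set the signals were 9.10 and 9.32 in Ad-atrogin-1 cells, against 8.46 and 8.49 in Ad-GFP cells, so the low Ad-GFP replicate 1 seen at its brightest probe set was not seen here. The 4 probe sets of Eprs1 ranged most widely. One had 9.75 and 10.30 in Ad-atrogin-1 cells, against 9.02 and 9.26 in Ad-GFP cells, a log2 fold change of 0.88 (SE 0.21, limma adjusted p = 0.227 over probe sets), and another gave -0.22 with signals under the lower quartile. The negative probe set of Kars1 (-0.11) was equally dim. Probe sets of a gene share its RNA and are not replicates.

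The arrays on which the genes were highest differed between cytosolic and mitochondrial synthetases. Of the 20 cytosolic genes, 17 were highest on Ad-atrogin-1 replicate 2 and 0 on Ad-atrogin-1 replicate 1, whereas 9 of the 14 mitochondrial genes were highest on Ad-atrogin-1 replicate 1 and 2 on replicate 2. Among all 14224 genes, 3588 were highest on Ad-atrogin-1 replicate 1 and 3503 on Ad-atrogin-1 replicate 2. Replicate 2 was above replicate 1 in both groups for 14 of 20 cytosolic genes (70.0%) and 0 of 14 mitochondrial genes, against 25.3% of all genes. The opposite order in both groups held for 0 of 20 cytosolic and 8 of 14 mitochondrial genes (57.1%), against 26.8% of all genes. The median of replicate 2 minus replicate 1 was 0.17 in Ad-atrogin-1 cells and 0.17 in Ad-GFP cells for the cytosolic genes, and -0.19 in Ad-atrogin-1 cells and -0.10 in Ad-GFP cells for the mitochondrial genes. Markers of other cell types also differed between replicates, and their part in this pattern was not tested. The mean difference between groups was larger than both replicate differences in 16 of the 34 genes (47.1%), 11 of them cytosolic, against 31.2% of all genes.

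**Figure D3:**
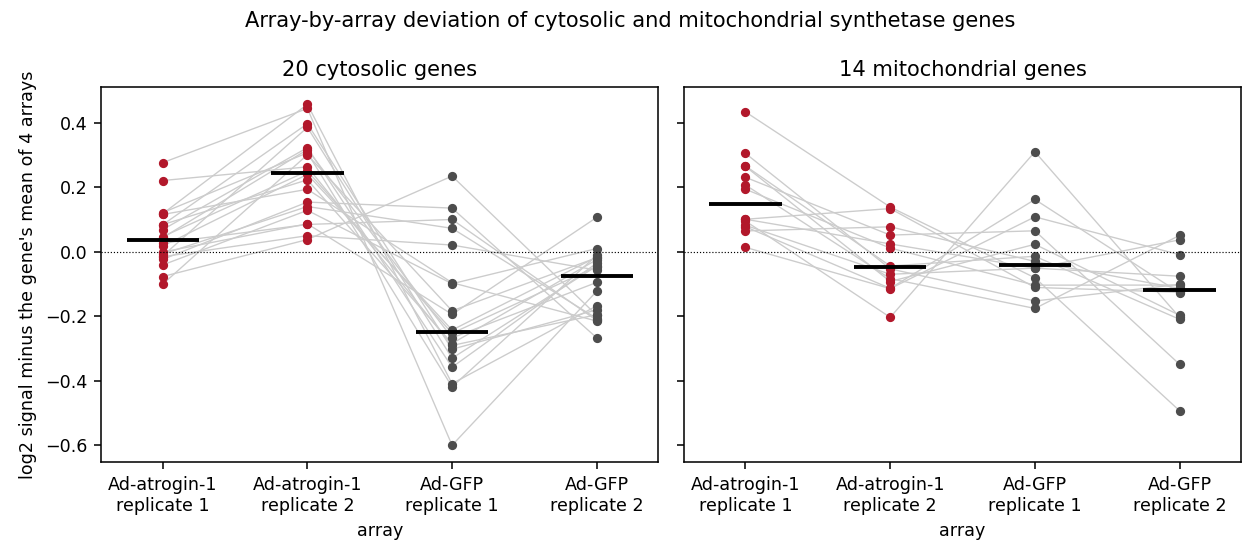
Log2 signal of each gene minus its mean over the 4 arrays, for 20 cytosolic and 14 mitochondrial genes; points are genes, grey lines join the same gene across arrays, and black lines are medians. The cytosolic medians are 0.04 and 0.25 on Ad-atrogin-1 replicates 1 and 2 and -0.25 and -0.08 on Ad-GFP replicates 1 and 2, and the mitochondrial medians are 0.15, -0.05, -0.04 and -0.12 in the same order.

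The median log2 fold change of the 20 cytosolic genes was 0.30, above the 0.16 of the 14 mitochondrial genes, but this order depended on single arrays. Without Ad-atrogin-1 replicate 2 the medians were 0.19 for the cytosolic and 0.24 for the mitochondrial genes, and without Ad-atrogin-1 replicate 1 they were 0.39 and 0.07. Without Ad-GFP replicate 1 they were 0.23 and 0.20, and without Ad-GFP replicate 2 they were 0.39 and 0.11. Within a replicate number, the median difference between groups was 0.28 at number 1 and 0.33 at number 2 for cytosolic genes, and 0.19 at number 1 and 0.10 at number 2 for mitochondrial genes. The difference was positive at both numbers in 23 of the 34 genes (14 of 20 cytosolic and 9 of 14 mitochondrial), against 4148 of all 14224 genes.

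Some amino acids have a gene for each compartment, and 13 such pairs were measured, with Eprs1 set beside Ears2. The log2 fold change was larger in the cytosolic gene in 10 of 13 pairs, by a median of 0.24 over the 13 pairs. Without Ad-atrogin-1 replicate 2 it was larger in 8 of 13 pairs with a median difference of 0.018, and without Ad-GFP replicate 1 in 7 of 13 with 0.08. Without Ad-atrogin-1 replicate 1 it was larger in 13 of 13 pairs (median 0.44) and without Ad-GFP replicate 2 in 12 of 13 (median 0.36). The widest distance was between Wars1 (0.72) and Wars2 (-0.10), a difference of 0.82. Aars1 and Aars2 were 0.33 apart, and Eprs1 and Ears2 0.34. The mitochondrial gene had the larger value for threonine, valine and cysteine, with cytosolic minus mitochondrial differences of -0.09, -0.16 and -0.0053. The difference within a pair was not tested.

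**Figure D4:**
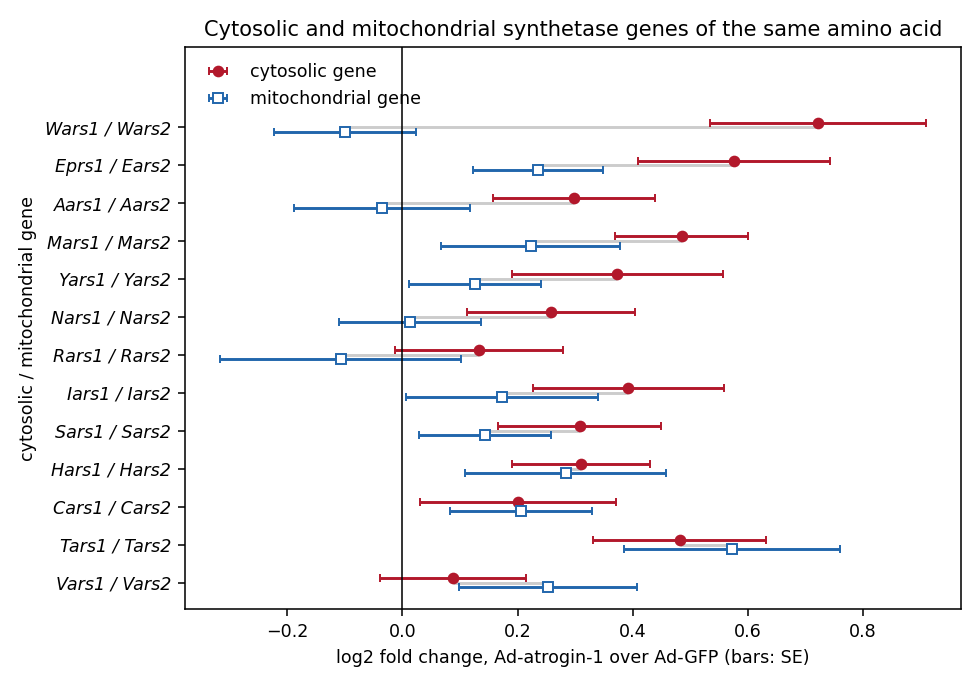
Ad-atrogin-1 minus Ad-GFP on the log2 scale for the cytosolic gene (filled circles) and the mitochondrial gene (open squares) of each amino acid; bars are the SE of the moderated fit (2 arrays per group). The cytosolic gene lies to the right in 10 of 13 pairs (in 8 of 13 without Ad-atrogin-1 replicate 2), and Wars1 and Wars2 are farthest apart.

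Set beside their promoters, the 7 cytosolic genes with TGATGNAA had a median log2 fold change of 0.37. In 6 of 7, all but Cars1, the Ad-atrogin-1 arrays both lay above every Ad-GFP array, which held for 20.7% of all genes. The 11 cytosolic genes whose promoter window did not hold it had a median of 0.13, and 5 of 11 did not overlap. These 11 include the 3 scaffold genes, and the 8 synthetases among them had a median of 0.31, with 5 of 8 not overlapping. Without Ad-atrogin-1 replicate 2 the medians were 0.20 for the 7 genes and 0.25 for the 8 synthetases. Wars1 and Eprs1, which had the largest values among the cytosolic genes, were among those whose window did not hold it. The start site of the Eprs1 window lay 1298 bases downstream of the gene boundary, and other stretches were not searched. These counts are a description and were not tested.

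Genes that work with the synthetases were counted in lists. In a list of 26 genes of the ATF4 pathway, 0 were called by limma and the median log2 fold change was 0.25. At an unadjusted limma p under 0.05, 6 were higher, against 6.83% of all genes. Pycr1, which the paper lists as up-regulated, was also on the planned list but had no gene-level value here and is not counted. In 12 of the 26 the Ad-atrogin-1 arrays both lay above every Ad-GFP array and in 2 below, against 20.7% and 22.3% of all genes. Replicate 2 was above replicate 1 in both groups in 22 of 26, against 25.3% of all genes. Atf4 had 11.76 and 11.96 in Ad-atrogin-1 cells, against 11.42 and 11.64 in Ad-GFP cells, with a log2 fold change of 0.33 (SE 0.14, limma adjusted p = 0.425 over genes). Slc3a2, the heavy chain of amino acid exchangers, had -0.19. The largest value of the 26 genes, named after the values were seen, was that of Ddit3 (CHOP, a stress-induced transcription factor). It had 9.58 and 9.65 in Ad-atrogin-1 cells, against 8.55 and 8.77 in Ad-GFP cells (log2 fold change 0.96, SE 0.13, limma adjusted p = 0.0614 over genes).

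Among 14 genes of eIF2, its exchange factor and its kinases, 1 was called, against 0.436% of all genes called higher. This was Eif2ak3 (PERK, the eIF2 kinase of the endoplasmic reticulum), which was higher in Ad-atrogin-1 cells. It had 7.41 and 7.20 in Ad-atrogin-1 cells, against 6.03 and 6.15 in Ad-GFP cells, a log2 fold change of 1.21 (SE 0.13, limma adjusted p = 0.0431 over genes and 0.0502 over probe sets, so that the call held at gene level only). The log2 fold change was 1.103 to 1.322 with an array left out, where a group has a single array and no call is read. The call held with median centring, further quantile normalization, the upper 60% by signal, an intensity trend, a robust prior and averaged probe sets. It was lost with the replicate block (limma adjusted p = 0.171) and the methods' t-test (adjusted p = 0.455). Those settings called 1 and 0 genes of the whole array, so the loss there is not particular to Eif2ak3. The median of the 14 genes was 0.22. At an unadjusted limma p under 0.05, 4 of the 14 were higher and 0 lower, against 6.83% of all genes higher. The Ad-atrogin-1 arrays both lay above every Ad-GFP array in 7 of the 14 and below in 1, against 20.7% and 22.3% of all genes. In the 12 genes of tRNA maturation and export limma called 0, and 1 was higher at an unadjusted p under 0.05, near the 6.83% of all genes. In 8 of the 12 the Ad-atrogin-1 arrays were both above every Ad-GFP array, against 20.7% of all genes. The median was 0.16, with Rtcb, the tRNA ligase, at 0.10 and Nsun2, a tRNA methyltransferase, at 0.29.

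Among the elongation factors, Eef1a1 receives the charged tRNA and brings it to the ribosome. Of 7 cytosolic elongation factors limma called 0, 0 were past an unadjusted p of 0.05, and the median log2 fold change was 0.03, with Eef1a1 at 0.06 and Eef2 at 0.25. Of 7 mitochondrial translation factors limma called 0, and 1 was higher at an unadjusted p under 0.05, against 6.83% of all genes. Their median was 0.20, with Tufm, the mitochondrial counterpart of Eef1a1, at 0.20 and Gfm1 at 0.09. The 4 genes of the mitochondrial glutamine amidotransferase and of formylation had a median of 0.06, and the 8 genes of tRNA editing and selenocysteine synthesis had one of 0.21. In both lists limma called 0, and 0 were past an unadjusted p of 0.05. Of the synthetases outside the rule, Farsa and Farsb, the subunits of the cytosolic phenylalanine enzyme, had log2 fold changes of 0.31 (limma adjusted p = 0.384 over genes) and 0.12, and Tars3 had 0.03.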

How the data were processed

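RNA of 2 Ad-atrogin-1 and 2 Ad-GFP samples was measured on Affymetrix rat genome arrays. The deposited log2 signals were made by the authors with GeneSpring GX (robust multi-array average, RMA) and were used as deposited; 57 control probe sets were left out and no signal filter was applied. Probe sets were paired with genes through the platform's annotation: 20837 had 1 gene, and 425 with several genes were not used at gene level, 1 of which held a member symbol (Ears2). Samples were grouped by their labels. Depth does not apply to arrays, and the 4 arrays limit the precision.

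Differences between the groups were tested in R 4.3.3 by limma 3.58.1 (lmFit, then eBayes; two-sided and unblocked; 2 residual and 3.65 prior degrees of freedom, prior SD 0.139), with Benjamini-Hochberg adjustment over all 31042 probe sets or, in a fit of the brightest probe sets, over 14224 genes. SEs are those of the fit over probe sets. Intervals are 95% intervals of the moderated fit. The fit was tested on simulated data drawn with the arrays' own variance: 83.4% of changes of 1.5 and 95.4% of changes of 2 on the log2 scale were called over 5 simulations of this comparison on the 31042 probe sets. Smaller changes were not simulated.

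The members, the lists and the promoter motifs were chosen with earlier results of these data known. By rule, full values were given for called members, the 10 genes with the largest and the 4 with the lowest log2 fold change, and other members by range and count. Of each list of related genes the called genes were named, or the brightest 2. Alternatives were median centring, a further quantile normalization, the upper 60% by signal, an intensity trend, a robust prior, the replicate number as a block, the methods' t-test (an equal-variance test, since the methods do not name one in detail), averaging the probe sets of each gene, and each array left out. Promoters and coordinates are from RefSeq, build GRCr8. Figures were drawn with matplotlib 3.10.9. RNA came, per the methods, from a larger number of independent experiments than a group has arrays. The experiment behind each array is not given in the sources used here.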

Additional observations from a re-analysis of the deposited data

How the results depend on the processing

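No synthetase or scaffold gene or probe set was called higher or lower under any alternative run. With an array left out 0 probe sets and 1 gene of the whole array were called, and with the methods' t-test 0 and 0, so those settings say nothing about the members' calls. At gene level the lowest adjusted p lay between 0.112 (probe sets averaged per gene) and 0.492 (without Ad-atrogin-1 replicate 2). The median log2 fold change of the 34 genes stayed between 0.20 and 0.23. With each array left out in turn, it ranged between 0.19 and 0.39 for the cytosolic and between 0.07 and 0.24 for the mitochondrial genes, and the log2 fold change of Aars2 between -0.18 and 0.11, of Eef1e1 between -0.25 and 0.18 and of Rars2 between -0.36 and 0.15. These 3 genes turned sign, and the cause was not tested beyond the loss of an array. The 10 genes with the largest values and Wars2 kept their sign throughout. In those 10 genes both Ad-atrogin-1 arrays lay above every Ad-GFP array, so the loss of an array could not turn the sign. The count of genes higher at an unadjusted p under 0.05, an alternative chosen after seeing the data, was 6 and became 3 with the methods' t-test, 3 without Ad-atrogin-1 replicate 2, and 9 with probe sets averaged per gene. Over all probe sets, samples with the same replicate number did not deviate together (correlation of deviations 0.043), and what the numbers mark is not given in the sources used here, so no pairing was assumed. Among the synthetase genes 14 of 20 cytosolic genes had replicate 2 above replicate 1 in both groups, and 8 of 14 mitochondrial genes the opposite order. With the replicate block 0 members were called, 9 genes were higher at an unadjusted p under 0.05 and the lowest adjusted p over genes was 0.240 (Wars1). The calls over the whole array depended on the setting: 85 probe sets were called without the block and 1 with it.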
